A study of Mus musculus with 8 samples.

Results

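The genes described here are 32 genes tied to the cells that surround the granulosa layer of the ovarian follicle. Most are markers of those cells, and a pair, Ihh and Dhh, are signals that granulosa cells send to them. They comprise 11 genes of theca cells and hedgehog signalling, 11 of stromal fibroblasts, and 10 of smooth muscle cells and pericytes. They were taken by symbol from a table of 51886 genes, and all 32 were found in it. Measured values did not enter the rule, though the genes were listed with earlier results of these data known. The RNA came from peri-ovulatory granulosa cells of mice, 4 libraries from knockouts of the PGR-A KO strain (PGR-A KO) and 4 from wild-type animals of the same strain (WT). PGR-A is an isoform of the progesterone receptor, which granulosa cells make after the ovulatory hormone surge. Animals of both genotypes were 21 to 27 days old. All were given 5 IU eCG, a hormone that stimulates follicle growth, and after 46 h 5 IU hCG, which triggers ovulation. Granulosa cells were taken 8 h after hCG, and each library pools 2 to 3 mice. The sources used here do not say how the allele was made or how granulosa cells were freed of other ovarian cells.

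A growing follicle holds granulosa cells inside a basement membrane and theca cells outside it. Granulosa cells secrete the hedgehog ligands IHH and DHH, and theca cells respond through the receptor PTCH1 and the transcription factor GLI1, whose genes are themselves hedgehog targets. Theca cells make androgens, which need the enzyme encoded by Cyp17a1, while fibroblasts lay down collagen around them. Contractile cells of the outer theca and the pericytes of its vessels carry smooth muscle genes.

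Levels are in TPM, a share of all transcripts scaled to a fixed total and corrected for transcript length, so levels of different genes can be compared. TPM keeps no sequencing depth, and the depth of each library is unknown. In such RNA from many cells, fewer cells of a type and less RNA per cell cannot be told apart. Correlations between libraries on the log2(TPM + 1) scale ran from 0.970 to 0.991. Pgr, which sums all transcripts of the receptor gene, was 2.01 to 3.52 TPM in PGR-A KO and 0.756 to 1.56 TPM in WT, and does not measure the loss of PGR-A. Granulosa markers, 14 genes, summed to between 4802 and 7977 TPM in each library, of which Inha alone was 2994 to 4645 TPM. Single granulosa markers were not all above the members. Wt1, Grem1 and Cyp19a1 had means of 26.4, 30.2 and 33.8 TPM over the 8 libraries, and the member Aldh1a1 87.3 TPM. Replicates 1, 2 and 4 of PGR-A KO and replicate 1 of WT were the 4 highest libraries of Adamts1, a protease gene of the ovulatory response. PGR-A KO replicate 3 and the first WT replicate thus lay with libraries of the other genotype. A fit of the other 6 libraries is given beside each member it moved to an unadjusted limma p under 0.05, and beside some further genes. Its p-values are no measure of the genotype effect, since the libraries left out were picked by their values, and 25.1% of all genes tested in it lay under 0.05. In all fits p-values measure only the spread between pools of mice.

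Genes of all 3 groups were measured in every granulosa library, and no genotype difference was detected in any of the 29 that were tested. The sum of the 11 theca and hedgehog genes was 151 to 176 TPM in PGR-A KO and 145 to 334 TPM in WT. The upper limit is WT replicate 2, which held 212 TPM of Aldh1a1, and the next WT library was at 202 TPM. Ihh and Dhh, which granulosa cells themselves make, are part of this sum. The sum of the 11 stromal genes was 161 to 239 TPM in PGR-A KO and 175 to 191 TPM in WT. The sum of the 10 smooth muscle and pericyte genes was 72.5 to 104 TPM in PGR-A KO and 73.8 to 115 TPM in WT. The groups overlapped in each sum. All 32 genes together made up 0.0439% ± 0.00361 of TPM in PGR-A KO and 0.0490% ± 0.00869 of TPM in WT (SD, n = 4 each).

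No member was listed at 0 in any library. Aldh1a1 had the highest mean over the 8 libraries, 87.3 TPM, followed by Col3a1 at 49.1, Fn1 at 46.1, Acta2 at 39.1 and Ihh at 32.2 TPM. The median of all 14472 genes tested was 16.6 TPM. Tagln, Col1a2, Ptch1, Col5a1, Dcn and Col1a1 had means from 16.6 to 23.6 TPM, and 16 members had a mean of at least 5 TPM. At the low end were Dpt, Notch3, Hsd3b6, Des, Rgs5 and Gli1, with means from 0.617 to 1.18 TPM.

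**Figure D1:**
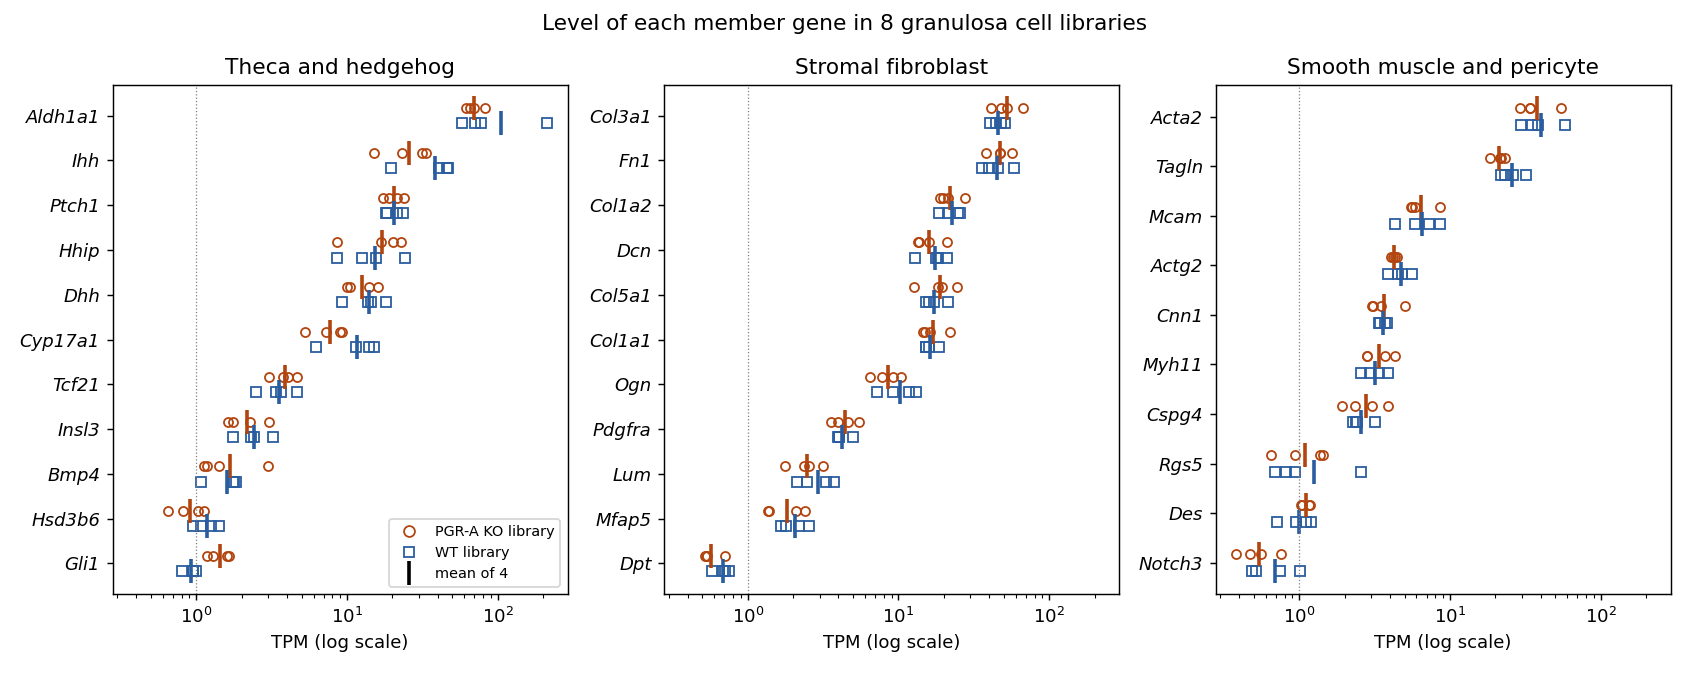
TPM of the 32 markers in each library on a log axis, in 3 panels by marker group. Circles are the 4 PGR-A KO libraries, squares the 4 WT libraries, bars the mean of 4, and the dotted line marks 1 TPM. The genotypes overlap in every gene except Gli1, and Aldh1a1, with 1 WT library at 212 TPM, has the highest mean.

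Genotypes were compared with limma on log2(TPM + 1) over all genes that reached 1 TPM in 4 or more libraries, a filter that 29 members passed. Dpt, Rgs5 and Notch3 did not pass it. No member passed an adjusted p of 0.05, where 0.0138% of all genes tested did. At an unadjusted p under 0.05 there was 1 member, Gli1. Of all genes tested 6.31% lay under it, 0.974% higher and 5.33% lower in PGR-A KO. Gli1 was also the only tested member whose groups did not overlap, which held for 3.42% of all genes, 0.601% higher and 2.82% lower. Of the 29 members, 13 had a higher and 16 a lower mean in PGR-A KO, and 57.4% of all genes tested had a lower one. The median log2 change, PGR-A KO minus WT, was -0.01 for the members and -0.02 for all genes. The balance of directions depended on the scaling: with TMM factors or quantile normalization 15 members had a higher and 14 a lower mean. Over all genes tested, 141 higher and 772 lower genes at an unadjusted limma p under 0.05 became 324 and 537 with TMM factors and 385 and 525 with quantile normalization. With 4 pools in each group, an adjusted p above the threshold does not show that the genotypes are alike, so intervals of the change are given.

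**Figure D2:**
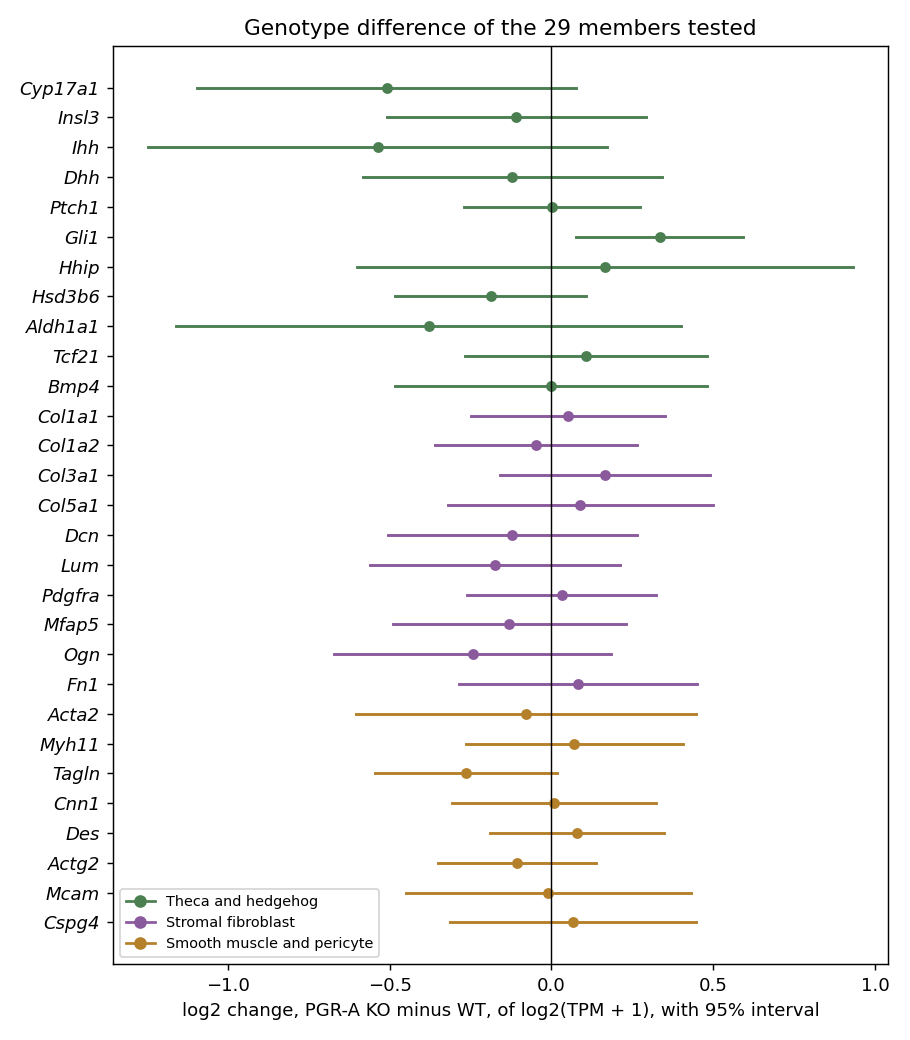
Log2 change of each of the 29 tested markers, PGR-A KO minus WT in log2(TPM + 1), with its 95% interval from limma. The points run from -0.54 for Ihh to 0.33 for Gli1, and the interval of Gli1 is the only one that leaves out 0.

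Among the hedgehog genes, the ligand Ihh and the target Gli1 had mean differences of opposite sign, neither of which passed the threshold. Gli1 (ENSMUSG00000025407.7, chromosome 10, 127329882 to 127341974, minus strand, mm10) encodes the transcription factor that carries the hedgehog signal to its targets. Gli1 stood at 1.29, 1.61, 1.66 and 1.18 TPM in PGR-A KO replicates 1 to 4 and at 0.948, 0.810, 1.00 and 0.947 TPM in WT replicates 1 to 4. Every PGR-A KO library was above every WT library. The mean of Gli1 was 1.44 ± 0.234 TPM in PGR-A KO and 0.926 ± 0.0815 TPM in WT (SD, n = 4 each), a ratio of 1.55. Its log2 change was 0.33 (SE 0.11, 95% interval 0.08 to 0.59). The exact permutation p of Gli1 was 0.0286, the smallest that 4 against 4 libraries allow. Over all genes the limma adjusted p was 0.752, from an unadjusted 0.0169. Gli1 was near the filter, with 1 of the 4 WT libraries at 1 TPM or more, and passed it through its PGR-A KO libraries. A filter of 5 TPM removed it. In the fit of 6 libraries the unadjusted limma p of Gli1 was 0.0555, with a log2 change of 0.30.

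The ligand genes were higher than Gli1 and did not separate the genotypes. Ihh (Indian hedgehog, chromosome 1, 74945315 to 74951672, minus strand) stood at 23.2, 33.6, 31.7 and 15.2 TPM in PGR-A KO and at 19.7, 46.4, 46.6 and 41.0 TPM in WT. WT replicates 2, 3 and 4 were above every PGR-A KO library, while WT replicate 1 was below 3 of them. The mean of Ihh was 25.9 ± 8.47 TPM in PGR-A KO and 38.4 ± 12.8 TPM in WT (SD, n = 4 each). The log2 change was -0.54 (SE 0.31, 95% interval -1.25 to 0.17, limma adjusted p = 0.808). Without WT replicate 1 it was -0.82 (adjusted p = 0.244), and without replicate 3 of PGR-A KO and replicate 1 of WT together -0.94 (adjusted p = 0.0567).

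Dhh (desert hedgehog, chromosome 15, 98891152 to 98898540, minus strand) stood at 9.97, 14.1, 16.1 and 10.5 TPM in PGR-A KO and at 9.34, 14.5, 18.1 and 13.8 TPM in WT. In each genotype replicate 1 was lowest and replicate 3 highest, and the groups overlapped throughout. Its log2 change was -0.12 (95% interval -0.58 to 0.34), and -0.40 in the fit of 6 libraries (limma adjusted p = 0.147). Of the 31-base words of Dhh transcripts, 11.5% also occur in other genes, nearly all of them in the neighbouring Rhebl1, which had 9.37 ± 0.704 TPM in PGR-A KO and 9.47 ± 0.736 TPM in WT (SD, n = 4 each).

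The receptor gene Ptch1 had the smallest spread over libraries of the theca and hedgehog members. Ptch1 (chromosome 13, 63508328 to 63573598, minus strand) stood at 17.4, 21.6, 24.0 and 19.0 TPM in PGR-A KO and at 18.4, 18.3, 23.7 and 21.5 TPM in WT. Its highest library was 1.38 times its lowest. The log2 change was 0.00 (SE 0.12, 95% interval -0.27 to 0.27). Hhip, which encodes a membrane protein that binds and sequesters hedgehog ligands (chromosome 8, 79965851 to 80058006, minus strand), varied more. Hhip stood at 23.0, 16.8, 8.61 and 20.1 TPM in PGR-A KO and at 24.2, 15.7, 12.6 and 8.61 TPM in WT. Its 4 highest libraries were the same 4 as for Adamts1, with replicate 3 of PGR-A KO and 3 WT libraries below them. The log2 change of Hhip was 0.17 (SE 0.34, 95% interval -0.60 to 0.93), and without replicate 3 of PGR-A KO and replicate 1 of WT it was 0.68 (limma adjusted p = 0.0828).

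Of 18 further genes of the hedgehog pathway 15 were tested, and none passed at an adjusted or unadjusted limma p of 0.05. The shares of all genes tested were 0.0138% and 6.31%. Their median log2 change was -0.01, and the PGR-A KO mean was higher in 6 and lower in 9. Smo, the signal transducer that PTCH1 holds in check, was the most abundant at 52.2 ± 2.59 TPM in PGR-A KO and 56.5 ± 5.57 TPM in WT (SD, n = 4 each). Gli3, which encodes a transcription factor that mainly represses hedgehog targets, had the lowest p of these genes. Gli3 stood at 5.35, 6.18, 4.05 and 5.63 TPM in PGR-A KO and at 5.89, 2.36, 3.78 and 3.91 TPM in WT (log2 change 0.37, SE 0.21, limma adjusted p = 0.802). WT replicate 1 again lay with the PGR-A KO libraries, and in the fit of 6 libraries the log2 change of Gli3 was 0.65 (limma adjusted p = 0.0518). That of Boc, also of this list, was 0.75 in the same fit (limma adjusted p = 0.0174). Shh, the hedgehog ligand gene best known from other organs, reached at most 0.0393 TPM and was listed at 0 in 2 libraries.

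The theca genes of steroid and retinoid metabolism differed widely in level, with no call between genotypes. Cyp17a1 (ENSMUSG00000003555.8, chromosome 19, 46667165 to 46673172, minus strand) encodes the enzyme that turns progestins into androgens and is a defining gene of theca cells. Cyp17a1 stood at 8.96, 9.28, 5.28 and 7.31 TPM in PGR-A KO and at 6.22, 15.2, 14.0 and 11.5 TPM in WT. WT replicates 2, 3 and 4 were above all PGR-A KO libraries, and WT replicate 1 was below 3 of them. Means were 7.71 ± 1.84 TPM in PGR-A KO and 11.7 ± 3.99 TPM in WT (SD, n = 4 each). The log2 change of Cyp17a1 was -0.51 (SE 0.26, 95% interval -1.10 to 0.08, limma adjusted p = 0.795). Without WT replicate 1 it was -0.76 (adjusted p = 0.225). Without replicate 3 of PGR-A KO and replicate 1 of WT together it was -0.61 (adjusted p = 0.0333), the only setting of those tried in which a member passed. Those libraries were left out by their values, so that p-value does not measure the genotype effect.

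Insl3, a peptide hormone gene of theca and Leydig cells (chromosome 8, 71689214 to 71690575, plus strand), was low. Insl3 stood at 3.06, 2.28, 1.63 and 1.76 TPM in PGR-A KO and at 2.43, 3.22, 2.29 and 1.74 TPM in WT, with overlapping groups (log2 change -0.11, 95% interval -0.51 to 0.29). Its value is uncertain, since 63.1% of the 31-base words of its transcripts also occur in those of Jak3, and how the quantification divided them is not known. Jak3 itself had 1.29 ± 0.274 TPM (SD, n = 4) in WT. Aldh1a1, which encodes a retinaldehyde dehydrogenase (chromosome 19, 20492715 to 20643465, plus strand), stood at 65.8, 62.0, 82.2 and 69.99 TPM in PGR-A KO and at 58.1, 212, 77.5 and 71.2 TPM in WT. WT replicate 2 was far above the rest, and the other 7 libraries overlapped. The log2 change of Aldh1a1 was -0.38 (SE 0.35, 95% interval -1.16 to 0.40), and without WT replicate 2 it was 0.02, so the difference in means rests on that library.

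Hsd3b6 is the isoform of 3-beta-hydroxysteroid dehydrogenase best known from Leydig cells, and it is a close copy of Hsd3b1, the form of ovary and adrenal, and of Hsd3b2. Over the 1122 coding bases, Hsd3b6 and Hsd3b2 are 94.4% identical, and Hsd3b6 and Hsd3b1 90.02%. Coding bases 301 to 390 of the GENCODE M21 transcripts are shown because many short reads from this stretch cannot be divided between Hsd3b6 and Hsd3b2. Hsd3b1 differs more here. Capitals mark the bases that differ from Hsd3b6, 1 in Hsd3b2 and 6 in Hsd3b1.
Hsd3b6: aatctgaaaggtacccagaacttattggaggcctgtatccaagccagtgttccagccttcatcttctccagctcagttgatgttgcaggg
Hsd3b2: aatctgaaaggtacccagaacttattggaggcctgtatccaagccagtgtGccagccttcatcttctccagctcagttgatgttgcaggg
Hsd3b1: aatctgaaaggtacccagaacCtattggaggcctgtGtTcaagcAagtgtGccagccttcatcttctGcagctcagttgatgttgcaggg

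The identical run between Hsd3b6 and Hsd3b2 reaches 144 bases, and between Hsd3b6 and Hsd3b1 72 bases. Hsd3b1 was the most abundant gene of the further theca and steroid list, at 1872 ± 385 TPM in PGR-A KO and 2305 ± 736 TPM in WT (SD, n = 4 each). Hsd3b6 had only 0.908 ± 0.217 TPM in PGR-A KO and 1.17 ± 0.201 TPM in WT (SD, n = 4 each), with overlapping groups. Hsd3b2 had 1.58 ± 0.221 and 1.71 ± 0.241 TPM (SD, n = 4). The Hsd3b6 value is therefore uncertain.

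Tcf21, a transcription factor gene of mesenchymal progenitors, ran from 2.49 to 4.69 TPM over the 8 libraries (log2 change 0.11). Bmp4, a growth factor gene of theca cells, ran from 1.08 to 3.00 TPM (log2 change -0.00). Of 14 further theca and steroid genes, all tested, the PGR-A KO mean was higher in 7 and lower in 7, and 0 passed. Cyb5a, whose cytochrome b5 helps CYP17A1 to make androgens, was the only one with an unadjusted limma p under 0.05. The share of all genes tested under it was 6.31%, so 1 of 14 does not set this list apart. Cyb5a had 711 ± 94.7 TPM in PGR-A KO and 911 ± 122 TPM in WT (SD, n = 4 each), a log2 change of -0.36 (limma adjusted p = 0.757). In the fit of 6 libraries, which were picked by their values, the log2 change of Cyb5a was -0.52 (limma adjusted p = 0.0201). Fdxr, also of this list, went the other way there, at 0.45 (limma adjusted p = 0.0194).

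The fibrillar collagen genes were present at similar levels in both genotypes. Col1a1 (ENSMUSG00000001506.10, chromosome 11, 94936224 to 94953042, plus strand), 1 of the 2 chains of type I collagen, stood at 15.0, 22.1, 14.6 and 16.2 TPM in PGR-A KO and at 15.1, 15.1, 18.6 and 15.9 TPM in WT. Replicate 2 of PGR-A KO and replicate 3 of WT were highest, and the other 6 libraries lay between 14.6 and 16.2 TPM. Its log2 change was 0.05 (SE 0.13, 95% interval -0.25 to 0.35). Col1a2 (chromosome 6, 4504814 to 4541544, plus strand), the partner chain, stood at 19.7, 27.6, 18.9 and 21.3 TPM in PGR-A KO and at 18.7, 25.0, 25.5 and 21.3 TPM in WT, with a log2 change of -0.05 (95% interval -0.36 to 0.26). Both chain genes were highest in PGR-A KO replicate 2.

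Col3a1, the chain of type III collagen in soft connective tissue (chromosome 1, 45311538 to 45349706, plus strand), was the most abundant stromal member. Col3a1 stood at 48.2, 67.5, 40.9 and 52.7 TPM in PGR-A KO and at 47.7, 51.2, 44.4 and 40.4 TPM in WT. PGR-A KO replicate 2 was again highest, and the groups overlapped (log2 change 0.17, 95% interval -0.16 to 0.49). Col5a1, a chain of the type V collagen that starts fibrils, stood at 18.4, 24.6, 12.8 and 19.5 TPM in PGR-A KO and at 21.2, 15.2, 17.1 and 15.8 TPM in WT. Its 4 highest libraries were the 4 highest of Adamts1. The same held for Fn1, the gene of the adhesive glycoprotein fibronectin (chromosome 1, 71585520 to 71653200, minus strand). Fn1 stood at 46.9, 57.0, 38.1 and 47.3 TPM in PGR-A KO and at 58.5, 35.6, 40.1 and 45.7 TPM in WT (log2 change 0.08, 95% interval -0.29 to 0.45). In the fit of 6 libraries the log2 changes of Col5a1 and Fn1 were 0.35 and 0.31 (limma adjusted p = 0.116 and 0.141).

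The small proteoglycan genes also overlapped between genotypes. Dcn (decorin, ENSMUSG00000019929.16, chromosome 10, 97479609 to 97518143, plus strand), whose protein coats collagen fibrils, stood at 13.7, 21.0, 15.9 and 13.4 TPM in PGR-A KO and at 12.98, 20.9, 17.7 and 18.2 TPM in WT. Replicate 2 was highest in both genotypes, and the log2 change was -0.12 (SE 0.17, 95% interval -0.50 to 0.26). Ogn, which encodes osteoglycin (chromosome 13, 49608046 to 49624501, plus strand), had the lowest p of the stromal members. Ogn stood at 6.46, 7.83, 10.4 and 9.18 TPM in PGR-A KO and at 7.25, 13.1, 11.8 and 9.14 TPM in WT, with a log2 change of -0.24 (95% interval -0.67 to 0.18, limma adjusted p = 0.862). The order of the Ogn libraries mixed the genotypes, and the fit of 6 libraries gave -0.48 (limma adjusted p = 0.111). Lum (lumican) ran from 1.77 to 3.75 TPM, the fibroblast receptor gene Pdgfra from 3.55 to 5.46 TPM and the microfibril gene Mfap5 from 1.37 to 2.55 TPM. Dpt (dermatopontin) was between 0.522 and 0.753 TPM in every library and was not tested.

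Of 35 further genes of stromal matrix 28 were tested, 11 with a higher and 17 with a lower mean in PGR-A KO, and 0 passed. Gsn was the only one at an unadjusted limma p under 0.05, where 6.31% of all genes tested lay, 5.33% of them lower in PGR-A KO as a share of all. A count of 1 in 28 does not set this list apart. Gsn encodes gelsolin, which severs actin filaments, and stood at 17.1, 15.7, 20.1 and 16.6 TPM in PGR-A KO and at 29.4, 25.8, 21.4 and 27.2 TPM in WT. Every WT library of Gsn was above every PGR-A KO library, a gap of 20.1 to 21.4 TPM at its narrowest. The same lack of overlap in this direction held for 2.82% of all genes tested. The log2 change of Gsn was -0.55 (SE 0.11), with a limma adjusted p of 0.483. In the fit of 6 libraries, which were picked by their values, the log2 change of Gsn was -0.56 (limma adjusted p = 0.0223). Vim, the vimentin gene, which granulosa cells also express, was the most abundant at 571 ± 103 TPM in PGR-A KO and 554 ± 142 TPM in WT (SD, n = 4 each). In the fit of 6 libraries the log2 changes of Vim and Lox were 0.36 and 0.51 (limma adjusted p = 0.0305 and 0.0177).

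Smooth muscle genes were led by Acta2, which varied more between libraries than between genotypes. Acta2 (ENSMUSG00000035783.9, chromosome 19, 34241090 to 34255590, minus strand) encodes the actin of vascular smooth muscle. Acta2 stood at 29.4, 33.9, 54.9 and 33.8 TPM in PGR-A KO and at 29.6, 35.1, 58.2 and 38.3 TPM in WT. Replicate 3 was highest and replicate 1 lowest in each genotype, though nothing in the labels pairs pools of the same number. Means were 38.0 ± 11.5 TPM in PGR-A KO and 40.3 ± 12.5 TPM in WT (SD, n = 4 each), a log2 change of -0.08 (SE 0.23, 95% interval -0.60 to 0.45). In the fit of 6 libraries it was -0.40 (limma adjusted p = 0.215).

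Tagln had the lowest p of this group, without passing the threshold. Tagln (ENSMUSG00000032085.5, chromosome 9, 45929619 to 45936058, minus strand) encodes transgelin, an actin-binding protein of smooth muscle. Tagln stood at 21.5, 18.5, 23.4 and 21.8 TPM in PGR-A KO and at 22.0, 23.3, 32.2 and 26.4 TPM in WT. PGR-A KO replicate 3 was above WT replicates 1 and 2, and the other PGR-A KO libraries were below all WT libraries. Its mean was 21.3 ± 2.03 TPM in PGR-A KO and 26.0 ± 4.56 TPM in WT (SD, n = 4 each). The log2 change was -0.26 (SE 0.12, 95% interval -0.54 to 0.02), with a limma adjusted p of 0.789 and an exact permutation p of 0.0857. It was -0.16 without WT replicate 3 and -0.38 without replicate 3 of PGR-A KO and replicate 1 of WT (limma adjusted p = 0.113).

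Myh11, the myosin heavy chain that defines mature smooth muscle (chromosome 16, 14194535 to 14291372, minus strand), was far below Acta2. Myh11 stood at 2.84, 3.69, 4.31 and 2.80 TPM in PGR-A KO and at 2.95, 2.56, 3.87 and 3.37 TPM in WT, with replicate 3 highest in each genotype (log2 change 0.07, 95% interval -0.26 to 0.41). The calponin gene Cnn1 ran from 3.05 to 5.06 TPM and was likewise highest in PGR-A KO replicate 3. The enteric actin gene Actg2 ran from 3.89 to 5.60 TPM and Des, which encodes the intermediate filament desmin, from 0.716 to 1.21 TPM. Log2 changes of Cnn1, Actg2 and Des lay between -0.11 and 0.08.

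The pericyte members were low. Mcam, an adhesion molecule of pericytes and endothelial cells, stood at 5.89, 8.57, 5.56 and 5.54 TPM in PGR-A KO and at 7.24, 8.56, 5.91 and 4.34 TPM in WT. Replicate 2 was highest in both genotypes, and the log2 change was -0.01 (SE 0.20, 95% interval -0.45 to 0.43). Cspg4, the proteoglycan NG2, ran from 1.92 to 3.87 TPM. Rgs5, a regulator of G protein signalling typical of pericytes, ran from 0.646 to 2.58 TPM, with 3 libraries at 1 TPM or more. Notch3, a receptor of vascular smooth muscle, ran from 0.383 to 1.01 TPM, and neither Rgs5 nor Notch3 was tested. Further pericyte genes differed in level. Pdgfrb, the receptor that recruits pericytes to vessels, ran from 2.03 to 4.46 TPM, Anpep from 4.16 to 10.6 TPM, Ndufa4l2 from 1.29 to 6.04 TPM and Abcc9 from 0.989 to 1.91 TPM. Vtn lay between 0.0266 and 0.0744 TPM, and Higd1b was listed at 0 in 1 library and reached 0.201 TPM in another. Heyl and Notch2, of the same further list, were higher, at 23.8 to 48.6 and 20.3 to 39.8 TPM.

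Of 30 further contractile and pericyte genes 22 were tested, 8 with a higher and 14 with a lower mean in PGR-A KO, and 0 passed. The small heat shock protein gene Hspb1 was the only one at an unadjusted limma p under 0.05. With 6.31% of all genes tested under it, 1 of 22 does not set this list apart. Hspb1 stood at 31.4, 26.5, 29.5 and 28.6 TPM in PGR-A KO and at 46.1, 33.1, 35.1 and 32.3 TPM in WT. The groups of Hspb1 did not overlap, as for 2.82% of all genes tested in this direction. WT replicate 1 of Hspb1 was far above the rest (log2 change -0.32, limma adjusted p = 0.774). Flna, the filamin A gene, was the most abundant of the list at 307 ± 13.8 TPM in PGR-A KO and 322 ± 35.6 TPM in WT (SD, n = 4 each). In the fit of 6 libraries Heyl, Pdlim7 and Vcl had log2 changes of 0.63, 0.38 and 0.47 (limma adjusted p = 0.0434, 0.0285 and 0.0499). Myocd, Mylk and Myl9, of the same list, went the other way there without passing. Their log2 changes were -0.58, -0.47 and -0.42 (limma adjusted p = 0.0570, 0.0981 and 0.0753). Myocd encodes the coactivator of smooth muscle genes and, though outside the rule for named genes, is given because its libraries can be set beside those of Acta2. Myocd was highest in the replicate 3 libraries, at 7.95 TPM in PGR-A KO and 8.50 TPM in WT. Its partner Srf and the related coactivator gene Mrtfa were lowest of all 8 libraries in PGR-A KO replicate 3, at 50.9 and 12.3 TPM. In WT replicate 3 Srf and Mrtfa were at 55.0 and 13.7 TPM, inside the range of the other WT libraries.

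**Figure D3:**
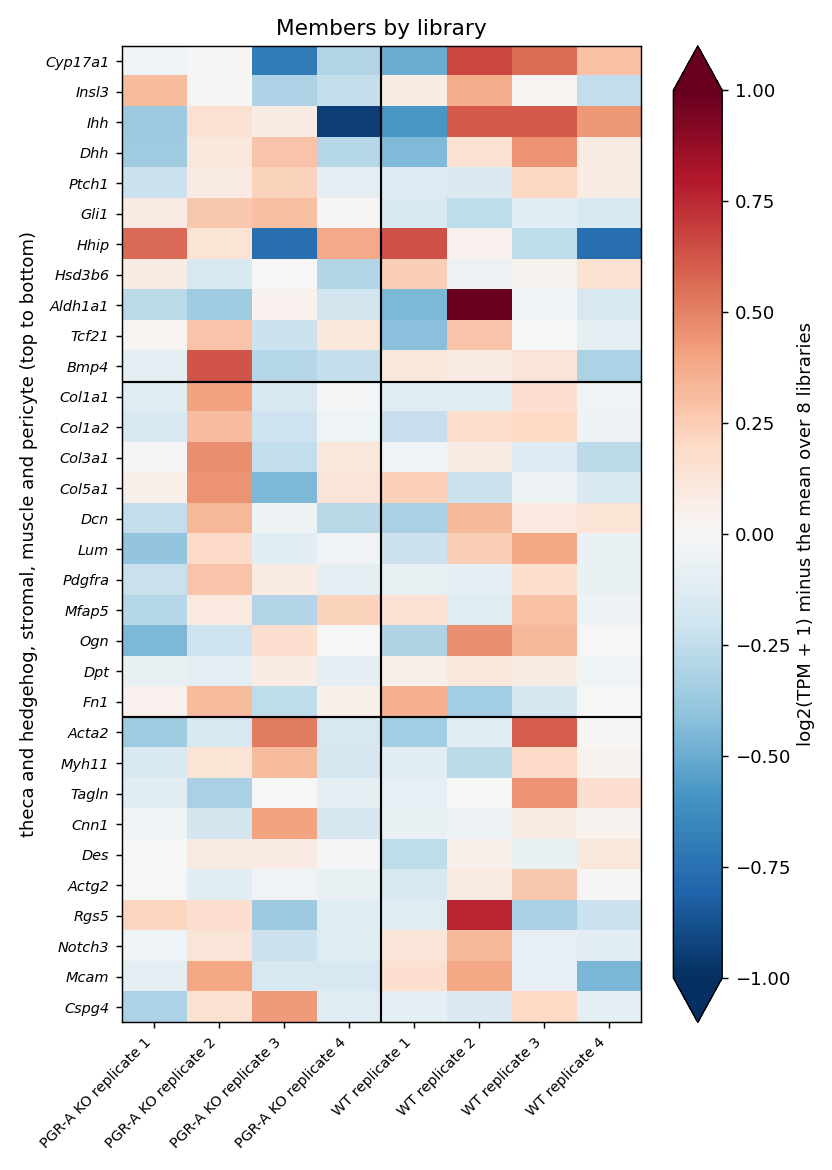
Heat map of the 32 markers in the 8 libraries, each gene as log2(TPM + 1) minus its mean over the libraries, with colours running from -1 to 1. Acta2 is high in replicate 3 of both genotypes, Mcam in replicate 2 of both, and Aldh1a1 and Rgs5 stand out in WT replicate 2.

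Smooth muscle genes share a known regulatory sequence, the CArG box bound by serum response factor, so the promoters of the members were searched for it. It is 10 bases with CC at its start, GG at its end and only A or T between, and reads the same on both strands. The RefSeq promoter table on GRCm38.p6 held 23 promoters of 22 of the 32 members, each 250 bases before to 50 after a start. Members without a promoter in it, of any group, were not searched. The promoters searched include stromal and hedgehog genes, so the counts below are not a result about smooth muscle genes alone. A full CArG box was in 0 of the 23, and in 1.63% of all 32851 promoters. With 1 of the inner letters free, the box was in 3 of the 23 and in 9.98% of all promoters. The hedgehog target sequence GACCACCCA, searched on both strands, was in 0 of the 23 and in 0.253% of all. With shares this low, 0 of 23 does not set these promoters apart from the rest. Each box with a free letter is shown in capitals with 10 bases on either side, because Acta2, the highest smooth muscle member, holds 2 of the 4. These begin at -84 and -34 from its start (GRCm38.p6 chr19:34255438-34255467 and chr19:34255388-34255417, minus strand), inside the first exon of a GENCODE transcript that starts farther upstream. Those of Col1a2 (chr6:4505380-4505409, plus strand) and Dhh (chr15:98898555-98898584, minus strand) begin at -228 and -34 from the start. The Col1a2 stretch also lies inside the gene as annotated by GENCODE, which begins farther upstream, at 4504814.
Acta2, far: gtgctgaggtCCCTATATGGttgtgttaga
Acta2, near: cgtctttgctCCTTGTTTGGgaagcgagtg
Col1a2: taaagtgcttCCAAACTTGGcaagggcgag
Dhh: gggcccgggaCCACTTAAGGcggagtcagg

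A match describes letters only, and binding was not measured here.

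Whether markers of the same cells vary together over the 8 libraries was examined in 16 gene pairs. Of these, 14 had a Pearson r above 0 and 0 passed at an adjusted p of 0.05 by either coefficient, with 4 at a raw Pearson p under 0.05. The highest Pearson r was that of Rgs5 with Notch3, the pericyte pair, at 0.84 (exact permutation p = 0.00828, adjusted 0.0663) and rho = 0.83 (exact permutation p = 0.0154, adjusted 0.116). Without the 2 libraries farthest out in Rgs5 the r was 0.78. Both genes of this pair are low, and both were highest in WT replicate 2 and lowest in PGR-A KO replicate 3.

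The type I collagen pair had the highest rho. Col1a1 with Col1a2 had r = 0.80 (exact permutation p = 0.00809, adjusted 0.0663) and rho = 0.86 (exact permutation p = 0.0107, adjusted 0.116). Without replicate 2 of PGR-A KO and replicate 3 of WT, the libraries farthest out in Col1a1, the r was 0.34. Leaving out the farthest libraries narrows the range, which alone can lower r, so this does not show what the relation rests on. With each gene centred on its group mean the r was 0.84 (exact permutation p = 0.0191, adjusted 0.102). Dcn with Lum, a pair of matrix proteoglycans, had r = 0.74 (exact permutation p = 0.0388, adjusted 0.148) and r = 0.68 without 2 libraries.

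Acta2 with Myh11 had r = 0.78 (exact permutation p = 0.0216, adjusted 0.115), and Acta2 with Tagln r = 0.70 (exact permutation p = 0.05002, adjusted 0.148). Without the replicate 3 libraries of both genotypes these were 0.28 and 0.48. Across groups, Col1a1 with Acta2 had r = 0.10 (exact permutation p = 0.850, adjusted 0.850), and -0.34 without 2 libraries. The theca pair Cyp17a1 with Insl3 had r = 0.49, and -0.10 without 2 libraries. Ihh with Gli1, ligand and target, had r = -0.22 (exact permutation p = 0.590, adjusted 0.674). Within genotypes, each gene centred on its group mean, the r of Ihh with Gli1 was 0.50 (exact permutation p = 0.234, adjusted 0.288), so the sign of this pair depends on whether the genotype means are kept. Centring left 0 of the 16 pairs past the adjusted threshold.

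**Figure D4:**
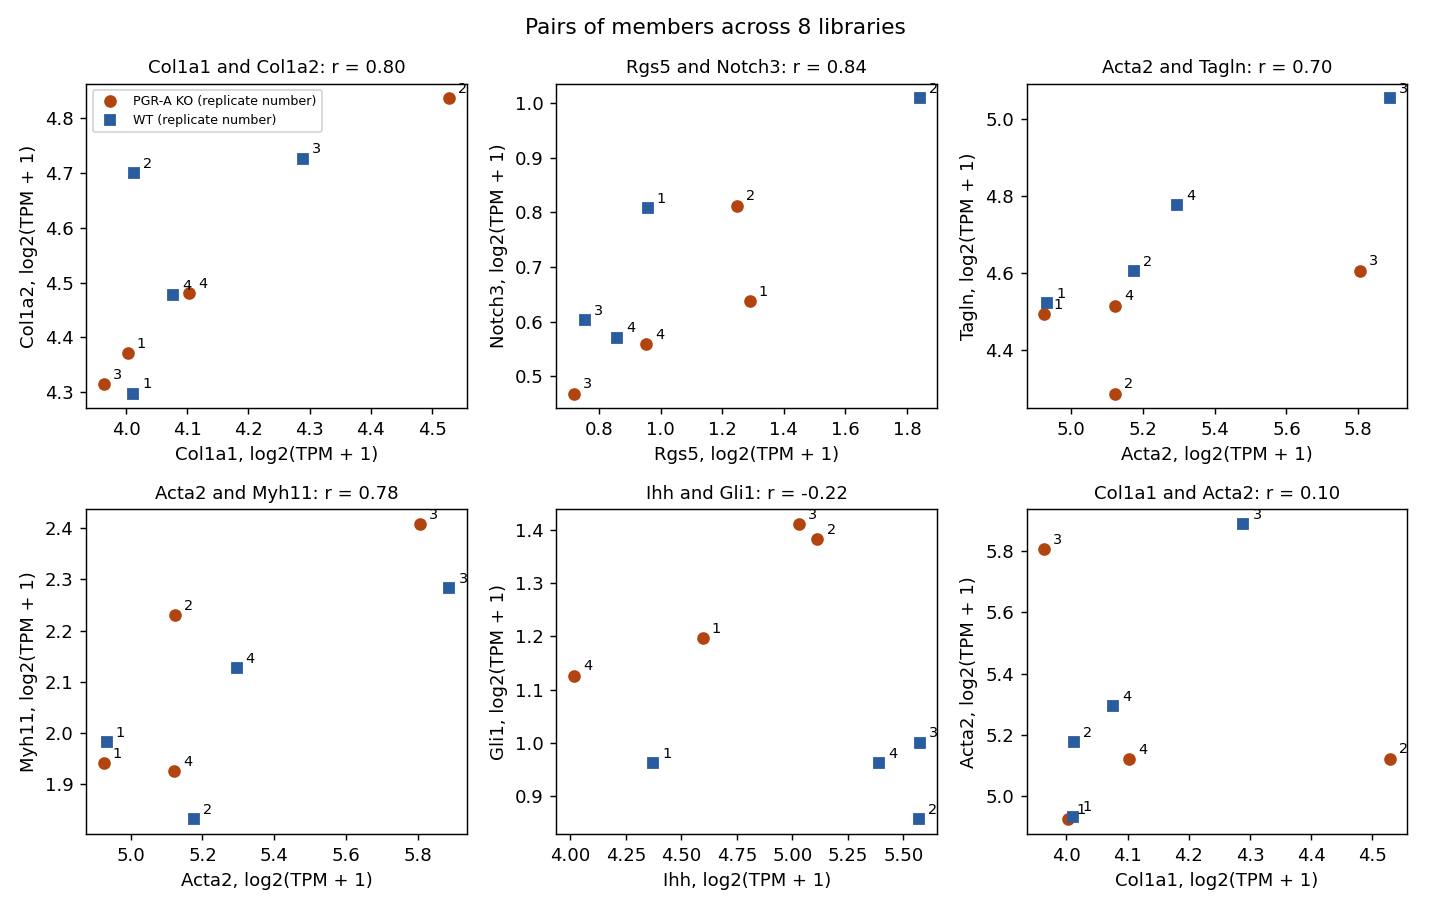
Log2(TPM + 1) of 6 gene pairs in the 8 libraries, circles for PGR-A KO and squares for WT, with replicate numbers beside the points. Acta2 rises with Tagln and Myh11, with the replicate 3 libraries highest in Acta2, and Ihh and Gli1 separate by genotype along Gli1.

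Markers of other ovarian and blood cells were read beside these genes, and their part in the values was not tested. None of them was listed at 0 in any library. Granulosa markers had lower means in PGR-A KO for 13 of 14 genes, with Inha at 3552 ± 515 TPM in PGR-A KO and 4063 ± 549 TPM in WT (SD, n = 4 each). The endothelial sum was 52.7 to 65.1 TPM in PGR-A KO and 161 to 317 TPM in WT, of which Lyve1 was 18.8 to 35.6 TPM and 127 to 267 TPM. Each of the other endothelial markers overlapped between genotypes. Of the 9 endothelial genes tested, 2 had a higher and 7, Lyve1 among them, a lower mean in PGR-A KO. Lyve1 was the only gene of the 11 further lists past the threshold (limma adjusted p = 0.00919). The macrophage sum was 54.1 to 113 TPM in PGR-A KO and 84.2 to 114 TPM in WT, lower in the mean for 7 of 8 genes. Oocyte markers summed to 795 to 1417 TPM in PGR-A KO and 577 to 1080 TPM in WT, with 9 of 9 means higher. Surface epithelium markers summed to 97.0 to 103 TPM and 93.3 to 131 TPM, with 9 of 9 means lower. Erythroid markers summed to 3660 to 6318 TPM and 1732 to 11370 TPM, widest in WT. The ovulatory response genes, 14 of 14 with a higher mean in PGR-A KO, summed to 1271 to 2930 TPM and 1387 to 3005 TPM. The 4 highest libraries of Adamts1 were also the 4 highest for 3 of the 29 tested members (10.3%: Hhip, Col5a1 and Fn1) and for 12.6% of all genes tested. They were the 4 lowest for 3 members (10.3%: Aldh1a1, Acta2 and Tagln) and for 10.5% of all genes.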

How the data were processed

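The authors deposited 1 table of TPM for 51886 gene symbols, in which each library sums to between 994519 and 997022. FastQC, Salmon, limma, edgeR and mm10 are named in the submitters' processing notes. The sources used here do not give their roles or versions, the annotation, or how transcripts were summed to genes. Groups and replicate numbers came from the sample titles. Values were tested as log2(TPM + 1), a scale that understates the change of low genes, with limma 3.58.1 in R 4.3.3. The fit used an intensity trend and no covariate, in the 14472 genes that reached 1 TPM in 4 or more of 8 libraries. P-values are 2-sided and Benjamini-Hochberg adjusted over all genes tested. Exact 2-sided permutation tests over 70 assignments served for single genes, and over 40320 pairings (576 within genotypes) for 16 gene pairs. Steps were tested on simulated data.

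The members and the further lists were chosen with earlier results of these data known. Values by library are given for members with a mean of at least 5 TPM, for those with an unadjusted limma p under 0.05, and for Cyp17a1, Insl3, Gli1, Col1a1, Dcn, Acta2 and Myh11. From each further pathway list the most abundant gene and that with the lowest p are named. Shh, Pdgfrb, Anpep, Ndufa4l2, Abcc9, Vtn, Higd1b, Myocd, Srf and Mrtfa are outside this rule and were picked after their values were seen. The same holds for Boc, Fdxr, Lox, Heyl, Notch2, Pdlim7, Vcl, Mylk and Myl9. Positions are from GENCODE M21 on mm10, and shared sequence was counted as 31-base words of its transcripts.

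Alternatives were pseudocounts of 0.1 and 5, no filter, a filter of 5 TPM, TMM factors, quantile normalization, limma without trend or with robust empirical Bayes, a replicate block, each library left out, gene pairs centred within genotypes, and shares of TPM without mitochondrially encoded genes. A fit of 6 libraries, with replicate 3 of PGR-A KO and replicate 1 of WT left out, was added after the data were seen.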

Additional observations from a re-analysis of the deposited data

Results flagged for a closer look

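In 11 of 104 groups of 4 libraries, over the 32 members and 20 further genes, 1 library lay far from the other 3. Chance gives about 1 in 20 groups where groups are independent. These come from the same 8 libraries and are not, so the count was not tested against chance. Of these groups, 8 belonged to members, which were 32 of the 52 genes examined. Aldh1a1 was 212 TPM in WT replicate 2, against 58.1 to 77.5 TPM in the other WT libraries. Rgs5 was 2.58 TPM in the same library, against 0.689 to 0.944 TPM. Bmp4 was 3.00 TPM in PGR-A KO replicate 2, against 1.12 to 1.41 TPM, and 1.08 TPM in WT replicate 4, below the 1.74 to 1.82 TPM of the other WT libraries. Mcam was 8.57 TPM in PGR-A KO replicate 2, against 5.54 to 5.89 TPM. In WT replicate 3, Pdgfra was 4.97 TPM, against 3.97 to 4.05 TPM, and Cspg4 3.18 TPM, against 2.29 to 2.42 TPM. Dpt was 0.709 TPM in PGR-A KO replicate 3, against 0.522 to 0.540 TPM. Among the further genes, Hsd3b1 was 3401 TPM in WT replicate 2, against 1846 to 2060 TPM. In PGR-A KO replicate 3, Lyz2 was 70.3 TPM, against 30.7 to 35.6 TPM, and Krt8 30.5 TPM, against 27.7 to 27.9 TPM.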

How the results depend on the processing

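The count of members past the threshold was 0 in each alternative of all 8 libraries, in the replicate block and with each library left out, and 1 (Cyp17a1) in the fit of 6 libraries with replicate 3 of PGR-A KO and replicate 1 of WT left out, which was chosen after the data were seen. The number of members whose groups did not overlap, 1, ran from 1 to 4 with a library left out. It was 3 without PGR-A KO replicate 3 (Gli1, Dpt and Tagln), 4 without WT replicate 1 (Cyp17a1, Ihh, Gli1 and Actg2) and 11 with 6 libraries, where fewer libraries make overlap rarer. Over the 14472 genes these shares were 9.07%, 11.01% and 31.1%. In the further lists the 1 gene past the threshold, Lyve1, became 0 with no filter, 0 to 1 with a library left out (0 without replicate 2 or 4 of PGR-A KO or replicate 2 of WT), and 28 of 145 with 6 libraries (17 higher and 11 lower in PGR-A KO), and the cause was not tested. The share of all genes past the adjusted threshold in that fit is not given here. Neither the 28 genes nor Cyp17a1 are thus read as a result about the lists. Members at an unadjusted limma p under 0.05 were 0 with the filter of 5 TPM, which removed Gli1, 2 without PGR-A KO replicate 3, 4 without WT replicate 1 and 8, Gli1 not among them, with 6 libraries. The shares of all genes tested were 6.36%, 10.7%, 12.8% and 25.1%. The deviations of same-numbered libraries from their group means correlated at r of 0.36, -0.11, 0.39 and -0.29, so the numbers were not taken to pair them. With the replicate block 3 members (Gli1, Ihh and Tagln) had an unadjusted limma p under 0.05, with 9.45% of all genes. Of 508 log2 changes of members under alternatives, 48 had the other sign, none of them called. Gli1 stayed higher in PGR-A KO, at 0.12 to 0.57 (limma adjusted p 0.212 to 1.00). Levels under about 1 TPM limit Gli1, Hsd3b6, Dpt, Rgs5 and Notch3, and no counting error can be given without counts.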
